A study of Mus musculus with 12 samples.

Results

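Insulin granules reach the plasma membrane, dock, are primed and fuse through a conserved set of membrane proteins, and the transcripts of 39 genes of this exocytosis machinery were followed in mouse pancreatic islets. The genes were taken by symbol from the deposited count table. All 39 were found among its 24421 genes, and all 39 passed the filter on low counts, which left 17411 genes for testing. Islets of Langerhans, labelled as mostly beta cells, were sequenced as 12 libraries in 6 groups of 2, called A and B. The knockout groups are labelled Bmal1fl/flRIPCreERT/+, so a floxed Bmal1 is deleted by an inducible Cre under the rat insulin promoter, which acts in beta cells and leaves Bmal1 in the other cells. The control groups carry the same floxed alleles (Bmal1fl/fl) and no Cre. Each genotype has a vehicle group (citrate buffer, islets taken at 24 h), a group at 24 h after a submaximal dose of streptozotocin (STZ), and a group at 4 wk after STZ. STZ is a toxin that enters beta cells through their glucose transporter. No vehicle group at 4 wk was used, so a difference between STZ 4 wk and vehicle mixes treatment and time. Whether A and B are from different animals is not given in the labels, so the p-values below reflect library-to-library spread and that spread may be technical.

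Calcium entry triggers fusion of an insulin granule. A vesicle SNARE (VAMP2 and its relatives) zips with the target SNAREs SNAP-25 and syntaxin, Munc18 proteins hold syntaxin ready, and synaptotagmins sense calcium. Rab3 and Rab27 with their effectors tether granules, Munc13 and CAPS proteins prime them, and RIM and Piccolo scaffolds arrange release sites. Granins are the acidic cargo proteins that help the granule form and are secreted with insulin. In beta cells this machinery gives the fast first phase and the sustained second phase of insulin secretion.

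Total counts ran from 101772241 to 127207523 per library. The targeted gene, listed as Arntl, was covered at its exon 8 at 0.627 to 1.37 times the transcript mean in the 6 knockout libraries (median 0.82) and at 1.56 to 1.99 times in the 6 control libraries (median 1.72). No knockout library reached the control range of this ratio. The gene as a whole did not follow the label in vehicle islets: it had 17.8 and 19.9 CPM in knockout vehicle and 8.79 and 8.36 CPM in control vehicle (log2 1.14, SE 0.11, adjusted p = 0.00024). Its exon 8 coverage, not scaled for depth, was 39.4 and 36.4 in the libraries labelled knockout vehicle and 35.4 and 32.2 in control vehicle, so it was not lower there. Relative to the transcript mean, exon 8 was at 0.627 and 0.671 in knockout vehicle and at 1.75 and 1.99 in control vehicle. Arntl had 8.88 and 9.43 CPM in knockout STZ 24 h and 11.2 and 10.8 CPM in control (log2 -0.26, adjusted p = 0.088), and 11.3 and 11.6 CPM in knockout STZ 4 wk and 20.6 and 20.4 CPM in control (log2 -0.84, adjusted p = 0.00055). Vehicle directions are therefore those of the libraries as labelled. The islet content of the libraries differed. Beta-cell markers (12 genes) made up 1.97 to 15.8% of counts, with both lowest shares, 1.97 and 2.20%, in knockout STZ 24 h. Markers of acinar cells (20 genes), the enzyme-secreting cells around the islets, made up 33.8 and 34.2% of counts in knockout STZ 24 h and 22.0 and 22.2% in control STZ 24 h, but 10.8% in both knockout vehicle libraries and 32.7 and 32.1% in control vehicle. At STZ 4 wk they made up 22.7 and 22.5% in knockout and 18.8 and 18.4% in control. Macrophage markers (17 genes) made up 0.239 and 0.246% in knockout STZ 24 h, 0.0885 and 0.118% in knockout STZ 4 wk and at most 0.0349% in the other 8 libraries. None of these marker lists held a gene at 0 in every library. In such whole-islet samples, fewer cells of a type and less RNA per cell cannot be told apart. Comparisons are therefore given under 2 scalings. The first scaling (TMM) sets a gene against the bulk of all genes, and the second sets it against the geometric mean of 16 endocrine genes that are not members, such as Neurod1, Isl1, Pax6, Pcsk2 and Ptprn. Under the second, the median of all genes moved by -0.41, 1.72 and 0.76 (log2, knockout over control) in vehicle, STZ 24 h and STZ 4 wk, so it reads as a change relative to other endocrine transcripts. Some of the 16 genes had wide gaps between A and B, which enter this scaling. Pcsk1n had 11.2 and 2.53 CPM in knockout vehicle and 1.26 and 10.5 CPM in knockout STZ 4 wk. Others had narrow ones, such as Pax6 with 206 and 238 CPM and 127 and 121 CPM.

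Most of the machinery was lower in knockout than in control islets after STZ, and the difference was larger at 24 h than at 4 wk in median. At 24 h, 28 of 39 members fell and 1 rose in knockout (edgeR quasi-likelihood test, adjusted p under 0.05 over all genes), beside 19.4% of all genes lower and 23.7% higher. The median log2 fold change of the 39 was -1.30, beside 0.00 for all genes. At 4 wk, 17 members fell and 2 rose, beside 7.89% and 19.9% of all genes, with a median of -0.54 against 0.01; a fit of only these 4 libraries called 1 member. In the libraries labelled knockout vehicle 0 fell and 4 rose, beside 7.68% and 1.96% of all genes, with a median of 0.17 against 0.00; without single libraries 0 to 2 passed, and scaling by total counts gave 28 higher and 0 lower with an all-gene median of 0.53. The 16 endocrine genes themselves had medians of -1.67, -0.70 and 0.45 at STZ 24 h, STZ 4 wk and vehicle. Together the 39 members took 0.452 and 0.462% of counts in knockout STZ 24 h, the lowest of any group, and 1.86% in both control STZ 24 h libraries.

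**Figure D1:**
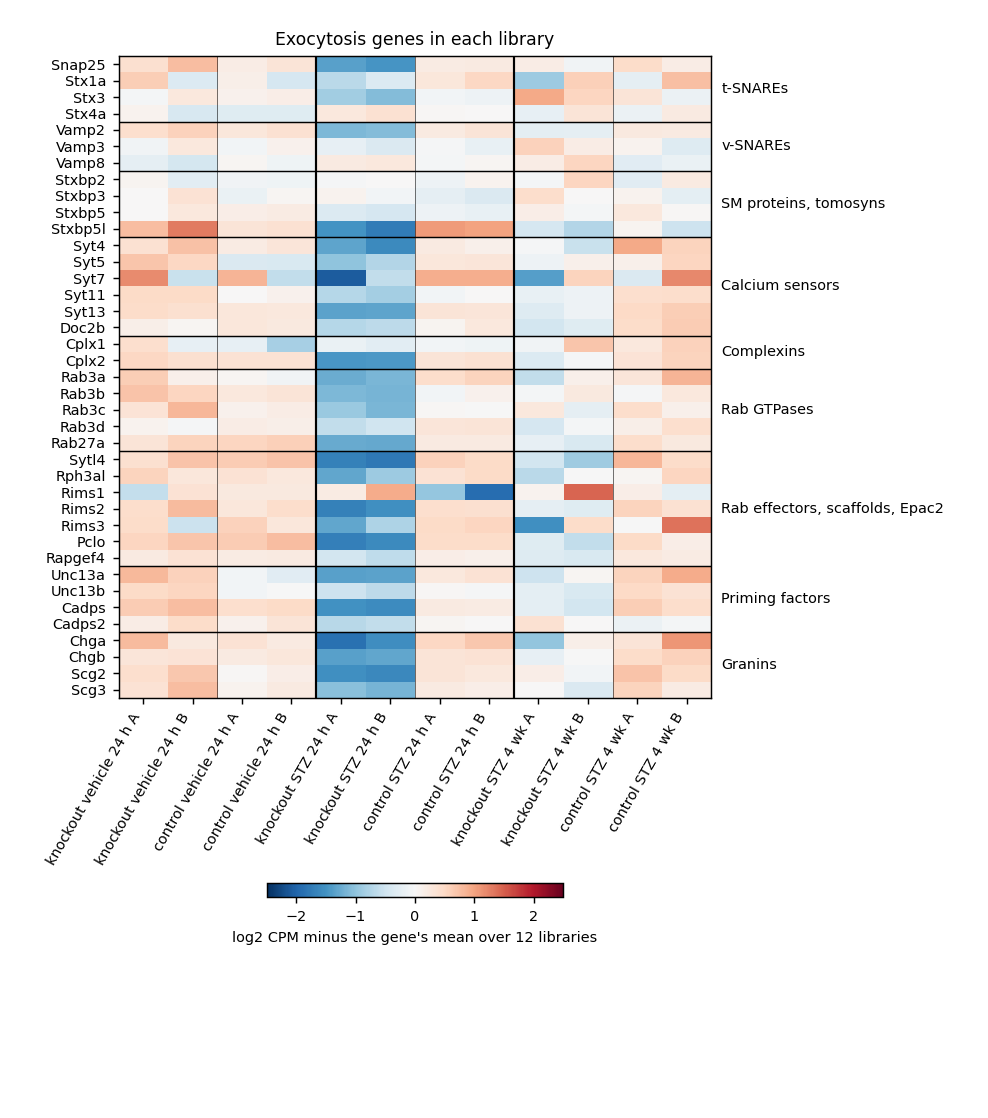
Level of each of the 39 genes in each of the 12 libraries, as log2 CPM minus the gene's mean over all libraries, with genes in rows grouped by role and libraries in columns (knockout left of control in each condition). Both knockout STZ 24 h libraries are blue (below the mean) across most roles, while Vamp8, Stx4a, Stxbp2 and Stxbp3 are near white.

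The same libraries gave another picture when set against the endocrine genes. At STZ 24 h, 19 members were higher and 1 was lower in knockout, beside 82.8% of all genes higher and 0.638% lower, with a median of 0.42 for the members and 1.72 for all genes. At STZ 4 wk, 11 were higher and 0 lower, beside 54.5% and 0.379%, with medians of 0.22 and 0.76. In vehicle islets 1 was higher and 3 were lower, beside 0.534% and 21.0%, with medians of -0.25 and -0.41. The members' shares of higher calls after STZ were thus below those of all genes. Calls of single members on this scale, given below, are to be read beside these all-gene shares and medians. At 24 h 30 members were above 0 on this scale and 9 below, spread from -0.93 for Stxbp5l over 0.10 for Snap25, 0.55 for Rab3b and 1.14 for Unc13b to 1.97 for Vamp8 and 3.68 for Rims1.

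**Figure D2:**
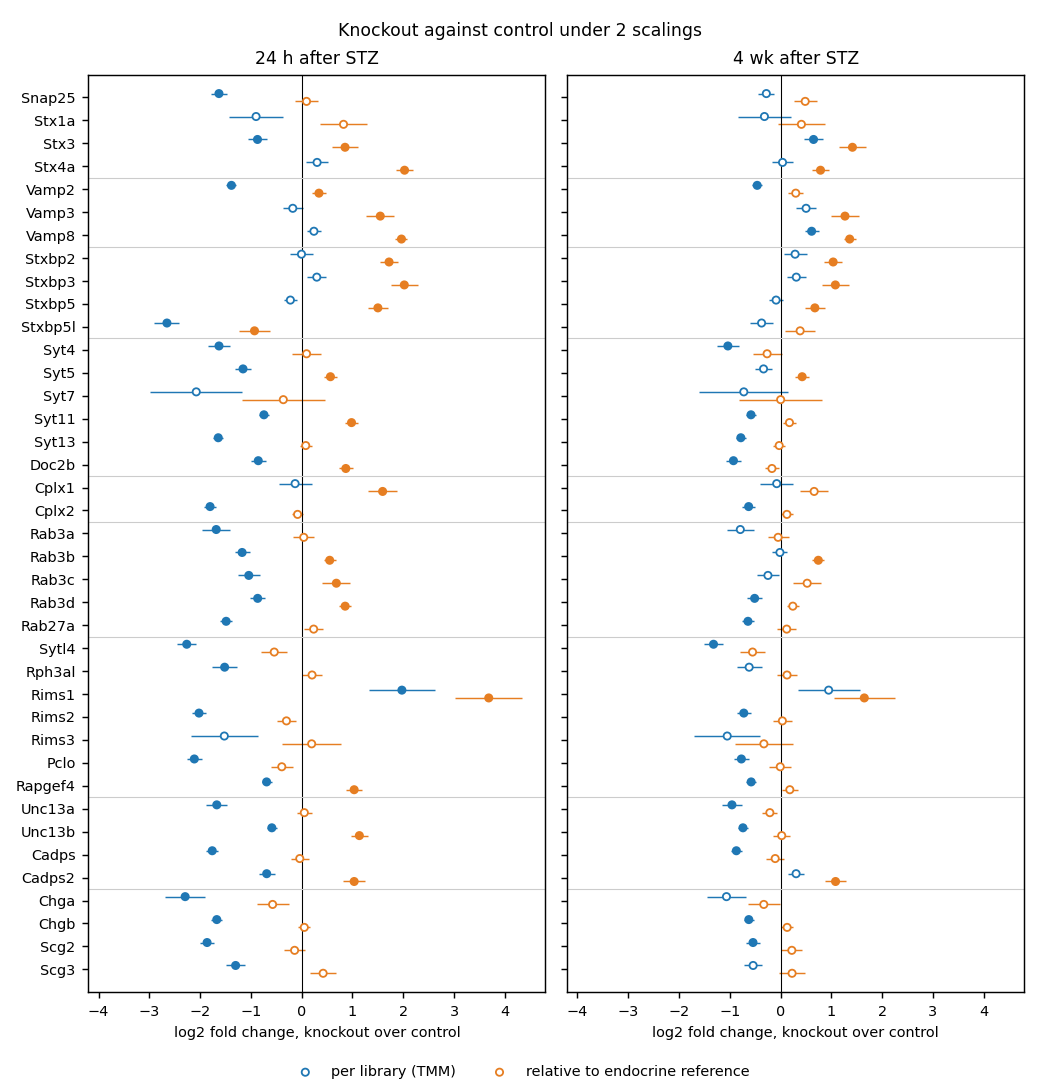
Log2 fold change of each member, knockout over control, at 24 h (left) and 4 wk (right) after STZ. Blue points are scaled by TMM and orange points relative to the 16 endocrine genes; bars are 1 SE and filled points passed an adjusted p of 0.05. At 24 h 35 blue points lie below 0 and 9 orange points do.

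Levels per transcript length placed the cargo first. In control vehicle islets, Scg2 reached 2789 and 3243 TPM, Chga 2494 and 2407 TPM, Scg3 719 and 843 TPM and Chgb 507 and 560 TPM, with no overlap between neighbours in this order. Below the granins came Syt13 at 218 and 230 TPM, the granuphilin gene Sytl4 at 133 and 148 TPM and Rab27a at 99.1 and 109 TPM. Rab27a overlapped Vamp2 (91.0 and 104 TPM), and Vamp2 overlapped Cplx2 (88.7 and 93.9 TPM). Among the lowest were Doc2b at 1.66 and 1.72 TPM, Cplx1 at 1.43 and 0.983 TPM and Rims1 at 0.148 and 0.161 TPM. Rims1 rests on 8 to 84 counts per library. The 4 granins made up 73.3 to 81.5% of the members' counts, so a sum over members is mostly a sum over cargo. Syt7 lay at 30.6 TPM in library A and 11.8 TPM in library B.

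**Figure D3:**
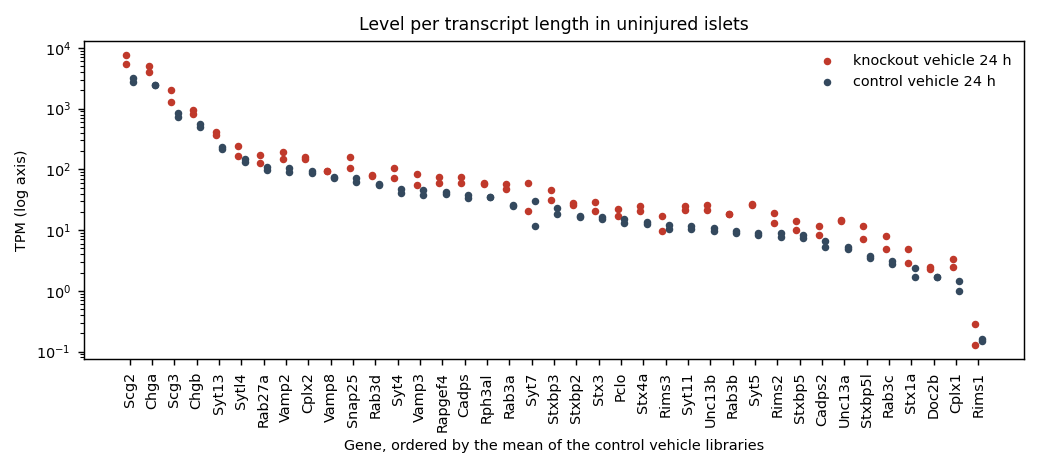
TPM of each member (log axis) in the 2 knockout and 2 control vehicle libraries, with genes ordered by the control mean. Levels run in control from 2407 to 3243 TPM for Scg2 and Chga down to Rims1 at 0.148 and 0.161 TPM.

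Among the target SNAREs, Snap25 fell in knockout islets at 24 h after STZ. It lies on chromosome 2 (136713450 to 136782428, mm10, plus strand). Its level was 37.5 and 34.9 CPM in knockout STZ 24 h, against 112 CPM in both control STZ 24 h libraries. The groups did not overlap, and the log2 fold change was -1.63 (SE 0.16, adjusted p = 7.7e-05). The share of all genes without overlap was not counted, here or for the genes below, so a lack of overlap does not set a gene apart. At 4 wk it was 110 and 90.4 CPM in knockout and 133 and 110 CPM in control, and in vehicle islets 127 and 165 CPM in knockout and 109 and 121 CPM in control. Neither difference passed (log2 -0.28, adjusted p = 0.24, and log2 0.34, adjusted p = 0.30). The log2 difference at 24 h was 0.10 (SE 0.23) relative to the endocrine genes.

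Snap25 carries a pair of mutually exclusive copies of 1 coding exon, and the choice between them sets whether SNAP-25a (upstream copy) or SNAP-25b (downstream copy) is made. The copies are shown because the deposited exon coverage separates them; capitals mark the 31 of 118 positions at which they differ (73.7% identity, read from GENCODE transcripts, mm10, plus strand, chr2:136769743-136769860 and chr2:136770057-136770174).
upstream exon: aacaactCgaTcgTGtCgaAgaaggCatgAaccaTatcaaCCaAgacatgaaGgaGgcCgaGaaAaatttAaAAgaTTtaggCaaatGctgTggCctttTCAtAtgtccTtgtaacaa
downstream exon: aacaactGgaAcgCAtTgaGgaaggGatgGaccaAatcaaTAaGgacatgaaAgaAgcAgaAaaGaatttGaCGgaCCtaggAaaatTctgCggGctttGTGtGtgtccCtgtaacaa
The upstream copy took 75.7 and 75.4% of the coverage of both copies in knockout STZ 24 h and 85.1 and 84.1% in control STZ 24 h. In vehicle islets it took 79.5 and 81.0% in knockout and 80.1 and 81.9% in control. At STZ 4 wk it took 76.6 and 83.0% in knockout and 79.5 and 81.4% in control. The upstream copy was the larger one in all 12 libraries. At STZ 24 h both knockout libraries lay below all other libraries and both control libraries above all others; this is described without a test. Markers of neurons and Schwann cells (10 genes), of which neurons are known to use the downstream copy, made up 0.00351 and 0.00408% of counts in knockout STZ 24 h and 0.00734 and 0.00713% in control STZ 24 h, and their part in the share was not tested.

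**Figure D4:**
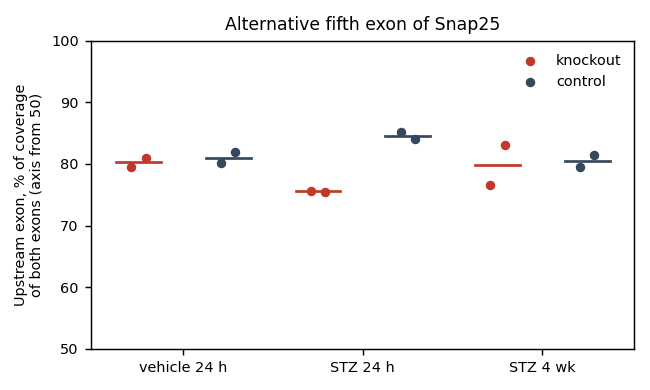
Share of the upstream copy in the coverage of both copies of the alternative Snap25 exon, in percent (axis from 50), per library, with lines at group means and knockout left of control. Knockout STZ 24 h libraries sit at 75.7 and 75.4%, and control STZ 24 h libraries at 85.1 and 84.1%.

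The syntaxins did not move as 1 group. Stx3, a syntaxin of granule-to-granule fusion, had 21.2 and 18.3 CPM in knockout STZ 24 h, against 36.8 and 35.2 CPM in control (log2 -0.87, SE 0.19, adjusted p = 0.0066). At 4 wk the direction was the opposite, with 74.3 and 55.8 CPM in knockout and 48.0 and 35 CPM in control (log2 0.65, SE 0.19, adjusted p = 0.036). The groups did not overlap at either time. The call at 24 h was lost without knockout STZ 24 h replicate B, and the call at 4 wk without control STZ 4 wk replicate B or knockout STZ 4 wk replicate A (log2 0.44 and 0.43). Set against the endocrine genes, Stx3 was higher in knockout at both times (log2 0.85, SE 0.26, and 1.41, SE 0.27), and the 24 h call was lost without control STZ 24 h replicate B or knockout STZ 24 h replicate A. Stx4a, the mouse gene for the plasma membrane syntaxin-4, had 21.8 and 23.8 CPM in knockout STZ 24 h and 18.6 and 18.3 CPM in control and did not pass under TMM (log2 0.30, adjusted p = 0.29). It was higher in knockout relative to the endocrine genes, at 24 h (log2 2.03, SE 0.17) and at 4 wk (0.79, SE 0.17). So were 82.8% and 54.5% of all genes. Stx1a, the syntaxin of docked granules, passed in none of the 3 comparisons of knockout with control under either scaling; its A and B libraries lay far apart, at 5.73 and 2.93 CPM in knockout vehicle and 4.13 and 2.78 CPM in control vehicle.

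Vamp2, the main vesicle SNARE of insulin granules, fell in knockout after STZ at both times. It had 62.7 and 64.7 CPM in knockout STZ 24 h and 161 and 171 CPM in control (log2 -1.38, SE 0.10, adjusted p = 1.1e-05). At 4 wk it had 116 and 117 CPM in knockout and 161 and 160 CPM in control (log2 -0.46, SE 0.10, adjusted p = 0.0064). The sign turned relative to the endocrine genes, to 0.34 at 24 h (adjusted p = 0.0497, lost without any 1 of the 4 libraries) and 0.30 at 4 wk (not passed). Vamp8, an endobrevin that also serves enzyme granules of acinar cells, went the other way. It had 57.2 and 58.5 CPM in knockout STZ 24 h and 47.5 and 50.5 CPM in control (log2 0.24, adjusted p = 0.19), and 56.1 and 71.4 CPM in knockout STZ 4 wk and 40.0 and 43.5 CPM in control (log2 0.61, SE 0.14, adjusted p = 0.010). The 4 wk call was lost without control STZ 4 wk replicate A. Vamp8 relative to the endocrine genes was lower in knockout vehicle islets (log2 -0.73, SE 0.11) and higher after STZ, by 1.97 at 24 h and 1.36 at 4 wk. The acinar share was also lower in knockout than control under vehicle and higher after STZ, and its part in the Vamp8 values was not tested. Vamp3, cellubrevin, passed only relative to the endocrine genes (log2 1.55 at 24 h and 1.27 at 4 wk). On that scale 82.8% and 54.5% of all genes were higher at these times.

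**Figure D5:**
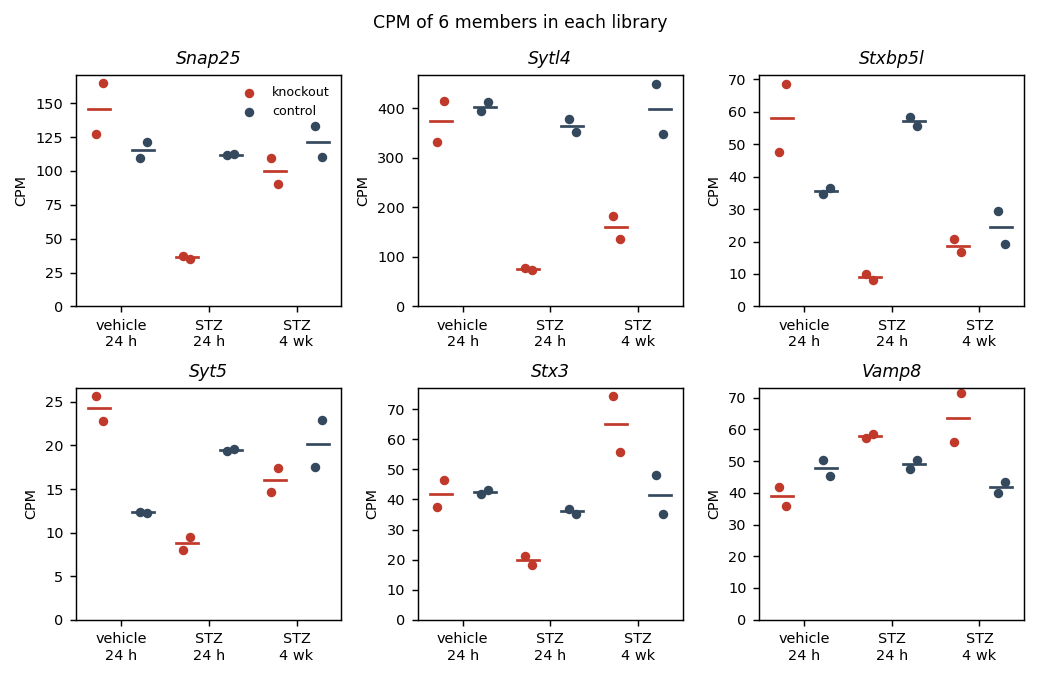
CPM of Snap25, Sytl4, Stxbp5l, Syt5, Stx3 and Vamp8 in each library, knockout (red) left of control (dark) in each condition, with lines at the group means. Snap25, Sytl4 and Stxbp5l are lowest in knockout STZ 24 h, Stx3 is highest in knockout STZ 4 wk, and Syt5 separates the genotypes in vehicle islets.

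Of the Munc18 proteins and tomosyns, which hold or block syntaxin, Stxbp5l stood apart. This gene for tomosyn-2, an inhibitor of SNARE assembly, had 9.84 and 8.29 CPM in knockout STZ 24 h and 58.4 and 55.6 CPM in control, with a log2 fold change of -2.65 (SE 0.25, adjusted p = 5.1e-05), the largest fall of the 39. It was the only member lower relative to the endocrine genes at 24 h (log2 -0.93, SE 0.30, adjusted p = 0.016), a call lost without control STZ 24 h replicate A or knockout STZ 24 h replicate B. At 4 wk it had 20.9 and 16.6 CPM in knockout and 29.3 and 19.3 CPM in control, where the ranges overlapped and the difference did not pass (log2 -0.38). Its relative Stxbp5, tomosyn-1, had 40.5 and 38.1 CPM in knockout STZ 24 h and 46.8 and 44.9 CPM in control and did not pass under TMM (log2 -0.22). The Munc18 genes Stxbp2 and Stxbp3 had log2 fold changes of -0.00 and 0.30 at 24 h and 0.28 and 0.31 at 4 wk, none of which passed. Stxbp2, Stxbp3 and Stxbp5 were higher at both times relative to the endocrine genes, by 1.72, 2.02 and 1.5 at 24 h and 1.03, 1.08 and 0.67 at 4 wk. So were 82.8% of all genes at 24 h and 54.5% at 4 wk, with the all-gene medians given above. The 4 wk calls of Stxbp3 and Stxbp5 were lost without control STZ 4 wk replicate B, and that of Stxbp5 also without knockout STZ 4 wk replicate A. Stxbp2 is also expressed in epithelial and blood cells, and the part of the macrophage and acinar shares given above in these values was not tested.

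The synaptotagmins and Doc2b, grouped as calcium sensors although not all bind calcium, fell in 5 of 6 genes at STZ 24 h and 4 of 6 at STZ 4 wk. Of all genes, 19.4% were lower at STZ 24 h and 7.89% at STZ 4 wk. Syt13, the most abundant synaptotagmin here although it lacks calcium binding, had 226 and 228 CPM in knockout STZ 24 h and 713 and 704 CPM in control (log2 -1.64, SE 0.10, adjusted p = 6e-06). At 4 wk it had 456 and 520 CPM in knockout and 810 and 871 CPM in control (log2 -0.78, SE 0.10, adjusted p = 0.00042). Its difference relative to the endocrine genes was 0.08 at 24 h and -0.03 at 4 wk. Syt4, which is induced as mouse beta cells mature and lowers the calcium sensitivity of release, had 48.0 and 39.9 CPM in knockout STZ 24 h and 140 and 131 CPM in control (log2 -1.63, SE 0.22). At 4 wk it had 118 and 80.9 CPM in knockout and 232 and 177 CPM in control (log2 -1.04, SE 0.21, adjusted p = 0.0065). Syt11, a non-calcium-binding synaptotagmin, fell at both times (log2 -0.74 and -0.58), and so did Doc2b, a soluble high-affinity calcium sensor (log2 -0.85 and -0.93). Syt11 and Doc2b relative to the endocrine genes were higher at 24 h (0.98 and 0.87), beside 82.8% of all genes. They were not called at 4 wk (0.17 and -0.17). In vehicle islets Doc2b was lower on that scale (-0.59, SE 0.14), beside 21.0% of all genes, a call lost without any 1 of the 4 libraries.

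Under TMM Syt5 was the called member with the largest genotype difference in vehicle islets. On the endocrine scale the called members Vamp8, Doc2b and Rab3d differed more. Syt5 had 25.7 and 22.8 CPM in knockout vehicle and 12.4 and 12.2 CPM in control vehicle (log2 0.98, SE 0.16, adjusted p = 0.0056). After STZ the order was the reverse, with 7.96 and 9.55 CPM in knockout STZ 24 h and 19.4 and 19.6 CPM in control (log2 -1.15, SE 0.17, adjusted p = 0.00059). The groups did not overlap in either condition. Syt5 relative to the endocrine genes was higher in knockout in each of the 3 conditions, by 0.55, 0.57 and 0.42 in vehicle, STZ 24 h and STZ 4 wk. Of all genes, 0.534%, 82.8% and 54.5% were higher on that scale. The vehicle call under TMM was lost without control vehicle replicate B (adjusted p = 0.051), and on the endocrine scale the vehicle call was lost without any 1 of its 4 libraries and the 4 wk call without any 1 of 3. The other sensor that rose in vehicle knockout islets was Syt11, with 55.5 CPM in both knockout libraries and 40.4 and 42.7 CPM in control (log2 0.42, SE 0.09, adjusted p = 0.022), a call lost without any 1 of the 4 libraries and at -0.01 relative to the endocrine genes.

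Syt7, the high-affinity calcium sensor of insulin release, could not be placed. It had 22.2 and 62.1 CPM in knockout STZ 24 h and 177 and 179 CPM in control STZ 24 h, and its log2 fold change of -2.08 had an SE of 0.91 and did not pass (adjusted p = 0.097). In vehicle islets it had 216 and 64.3 CPM in knockout and 171 and 61.6 CPM in control. Library A thus held 3.36 times the Syt7 of library B in knockout vehicle and 2.77 times in control vehicle, but 0.339 times in control STZ 4 wk and 0.262 times in knockout STZ 4 wk. Such gaps went with base composition: Syt7 has 60.6% GC, and Rims3 (59.2%), Stx1a (58.5%) and Chga (58.4%) also had wide gaps. Across the 39 genes, which share libraries and are not independent replicates, the correlation of the log2 gap (A over B) with GC was 0.82 in knockout vehicle, 0.65 in control vehicle, -0.61 in knockout STZ 24 h, -0.49 in control STZ 24 h, -0.79 in knockout STZ 4 wk and -0.85 in control STZ 4 wk. It is a description of these libraries.

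The complexins, which clamp and then help the SNARE complex, differed from each other. Cplx2 fell at both times. It had 105 CPM in both knockout STZ 24 h libraries and 359 and 375 CPM in control (log2 -1.80, SE 0.13, adjusted p = 1.1e-05), and 227 and 280 CPM in knockout STZ 4 wk and 365 and 419 CPM in control (log2 -0.63, SE 0.12, adjusted p = 0.0048). It differed relative to the endocrine genes by -0.08 and 0.12. Cplx1, a low transcript, had 2.71 and 2.55 CPM in knockout STZ 24 h and 2.91 and 2.84 CPM in control (log2 -0.13, adjusted p = 0.78). It was higher only relative to the endocrine genes (log2 1.59, SE 0.28), beside 82.8% of all genes higher on that scale.

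All 5 Rab GTPases fell at STZ 24 h, by log2 values of -0.87 to -1.68, beside 19.4% of all genes lower. Rab27a, which with its effectors docks granules, had 74.2 and 72.4 CPM in knockout STZ 24 h and 206 and 205 CPM in control (log2 -1.49, SE 0.12, adjusted p = 2.5e-05). It had 153 and 135 CPM in knockout STZ 4 wk and 241 and 209 CPM in control (log2 -0.64, SE 0.12, adjusted p = 0.0038). Rab3a, a regulator of granule supply, had 12.8 and 13.7 CPM in knockout STZ 24 h and 40.8 and 44.5 CPM in control (log2 -1.68, SE 0.27), and did not pass at 4 wk (log2 -0.79, adjusted p = 0.057). Rab3b and Rab3c fell at 24 h (log2 -1.17 and -1.04) and were at -0.01 and -0.25 at 4 wk, where neither passed. Rab3d, which also sits on acinar enzyme granules, had 103 and 112 CPM in knockout STZ 24 h and 194 and 199 CPM in control (log2 -0.87, SE 0.14), and its 4 wk call (log2 -0.51) was lost without control STZ 4 wk replicate B or knockout STZ 4 wk replicate A. Rab3b, Rab3c and Rab3d relative to the endocrine genes were higher at 24 h (0.55, 0.68 and 0.86) and Rab3b also at 4 wk (0.74). Rab3a and Rab27a were at 0.04 and 0.24 at 24 h, not passed. On that scale 82.8% of all genes were higher at 24 h and 54.5% at 4 wk. The 24 h values of these Rab genes lay below the all-gene median given above. In vehicle islets Rab3d was lower on that scale (-0.56, SE 0.12), beside 21.0% of all genes. This call, and that of Rab3c at 24 h, were lost without any 1 of the 4 libraries.

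Among the Rab effectors and scaffolds, Sytl4 fell most at 4 wk of all 39 members. Its product granuphilin binds Rab27a and syntaxin and docks granules in a fusion-reluctant state. Sytl4 (chromosome X, 133936385 to 133981812, mm10, minus strand) had 78.5 and 73.7 CPM in knockout STZ 24 h and 379 and 352 CPM in control (log2 -2.26, SE 0.19, adjusted p = 2.9e-05). At 4 wk it had 183 and 136 CPM in knockout and 450 and 348 CPM in control (log2 -1.32, SE 0.18, adjusted p = 0.00075). Vehicle values were 333 and 415 CPM in knockout and 394 and 413 CPM in control, where the ranges overlapped (log2 -0.11). Relative to the endocrine genes it was at -0.53, -0.54 and -0.55 in vehicle, STZ 24 h and STZ 4 wk, and none of these passed (adjusted p = 0.17, 0.075 and 0.093). Rph3al, which encodes the Rab effector Noc2, fell at 24 h (log2 -1.52, SE 0.25) and did not pass at 4 wk (-0.62, adjusted p = 0.096).

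Of the active-zone scaffolds Pclo and Rims2 fell at 24 h, Rims1 rose and Rims3 did not pass. Pclo, for the large scaffold Piccolo, had 39.5 and 42.8 CPM in knockout STZ 24 h and 179 and 178 CPM in control (log2 -2.11, SE 0.15). Rims2, the RIM isoform of beta cells, had 12 and 13.4 CPM in knockout STZ 24 h and 51.7 and 51.2 CPM in control (log2 -2.02, SE 0.14). Both fell at 4 wk too (log2 -0.77 and -0.73). Rapgef4, for the cAMP sensor Epac2, fell less. It had 86.7 and 76.9 CPM in knockout STZ 24 h and 134 and 130 CPM in control (log2 -0.69, SE 0.10). It fell by about as much at 4 wk (log2 -0.58, SE 0.10). Relative to the endocrine genes Rapgef4 was higher at 24 h (1.03, SE 0.16), beside 82.8% of all genes. Rims1 was the 1 member that rose at 24 h, with 0.278 and 0.459 CPM in knockout and 0.123 and 0.0641 CPM in control (log2 1.97, SE 0.65, adjusted p = 0.038). It rests on the few counts given above, and the call was lost without any 1 of the 4 libraries. On the endocrine scale Rims1 was higher at 24 h (3.68, SE 0.66) and 4 wk (1.65, SE 0.60), the second lost without any 1 of 3 libraries. Rims3 had an SE of 0.66 at 24 h and did not pass.

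All 4 priming factors fell at STZ 24 h and 3 of 4 at STZ 4 wk, beside 19.4% and 7.89% of all genes lower. Cadps, for CAPS1, had 41.6 and 39.7 CPM in knockout STZ 24 h and 138 CPM in both control libraries (log2 -1.76, SE 0.11, adjusted p = 7e-06), and 100 and 86.9 CPM in knockout STZ 4 wk and 181 and 161 CPM in control (log2 -0.87, SE 0.11). Its relative Cadps2 had 12.4 and 13.1 CPM in knockout STZ 24 h and 20.8 and 20.2 CPM in control (log2 -0.69, SE 0.15), a call lost without knockout STZ 24 h replicate A, and did not pass at 4 wk (log2 0.30). Relative to the endocrine genes Cadps was at -0.04 and -0.11 at the 2 times, and Cadps2 was higher at both (1.03 and 1.08). On that scale 82.8% and 54.5% of all genes were higher.

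The Munc13 genes differed between genotypes in all 3 conditions under TMM. Unc13a had 66.2 and 55.8 CPM in knockout vehicle and 35.8 and 31.0 CPM in control (log2 0.87, SE 0.20, adjusted p = 0.026). It had 14.7 and 14.8 CPM in knockout STZ 24 h and 45.3 and 48.5 CPM in control (log2 -1.67, SE 0.20), and 26.2 and 38.8 CPM in knockout STZ 4 wk and 55.4 and 70.9 CPM in control (log2 -0.96, SE 0.20). Unc13b followed the same order, with 76.2 and 79.6 CPM in knockout vehicle and 52.4 and 54.2 CPM in control (log2 0.55, SE 0.10, adjusted p = 0.0085), and with falls of -0.59 and -0.74 (log2) at STZ 24 h and 4 wk. The vehicle and STZ orders were opposite and no groups overlapped. Both vehicle calls were lost when single libraries were left out (Unc13a without either control library or knockout replicate A, Unc13b without either control library or knockout replicate B). Relative to the endocrine genes neither passed in vehicle islets (0.44 and 0.12) or at 4 wk (-0.21 and 0.02). On that scale Unc13b was higher at 24 h (1.14, SE 0.16), beside 82.8% of all genes. The acinar share was lower in knockout vehicle than control vehicle, and its part in the 4 vehicle calls was not tested.

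The granins all fell at STZ 24 h, beside 19.4% of all genes lower. Scg2 (chromosome 1, 79434669 to 79440090, mm10, minus strand), for secretogranin II, had 1978 and 1878 CPM in knockout STZ 24 h and 7135 and 6887 CPM in control (log2 -1.86, SE 0.14, adjusted p = 1.8e-05). Chgb (chromosome 2, 132781278 to 132795072, plus strand), for chromogranin B, had 394 and 409 CPM in knockout and 1263 and 1294 CPM in control (log2 -1.67, SE 0.11, adjusted p = 6.6e-06). Chga (chromosome 12, 102554969 to 102565027, plus strand), for chromogranin A, had 845 and 1052 CPM in knockout and 4413 and 4892 CPM in control (log2 -2.29, SE 0.39, adjusted p = 0.0016). Scg3, which binds chromogranin A and sorts it to granules, had 607 and 559 CPM in knockout and 1469 and 1404 CPM in control (log2 -1.30, SE 0.19). In none of the 4 genes did the genotypes overlap. The share of all genes without overlap was not counted, so this does not set the granins apart. At 4 wk Chgb and Scg2 fell (log2 -0.63 and -0.54), while Chga and Scg3 missed the threshold (log2 -1.07, adjusted p = 0.070, and -0.54, adjusted p = 0.060). The Scg2 call at 4 wk was lost without control STZ 4 wk replicate A or knockout STZ 4 wk replicate B. Relative to the endocrine genes no granin passed in any of the 3 comparisons of knockout with control; at 24 h the values were -0.14 for Scg2, 0.05 for Chgb, -0.57 for Chga and 0.42 for Scg3.

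Granin promoters are known for a cAMP response element (CRE). The 150 bases before 3 granin start sites are shown because Chgb and Scg2 hold its letters and Chga a similar form. Capitals mark TGACGTCA, the full CRE, and in Chga TGACGTAA, a form picked after reading its sequence (RefSeq, GRCm38.p6, gene strand; windows chr2:132781392-132781691 for Chgb, chr1:79439977-79440276 for Scg2 and chr12:102554691-102554990 for Chga).
Chgb: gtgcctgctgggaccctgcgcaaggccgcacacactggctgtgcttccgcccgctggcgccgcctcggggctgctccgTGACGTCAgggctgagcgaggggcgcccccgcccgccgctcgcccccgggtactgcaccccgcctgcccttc
Scg2: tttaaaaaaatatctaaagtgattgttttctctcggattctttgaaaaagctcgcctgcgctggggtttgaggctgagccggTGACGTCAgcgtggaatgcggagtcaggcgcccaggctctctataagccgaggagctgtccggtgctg
Chga: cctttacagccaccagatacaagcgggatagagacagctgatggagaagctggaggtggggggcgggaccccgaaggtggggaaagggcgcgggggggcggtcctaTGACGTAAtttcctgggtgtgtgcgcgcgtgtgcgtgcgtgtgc
Windows from 250 bases before to 50 after a RefSeq start were matched for 30 of the 39 members and searched on both strands. TGACGTCA was in 3 of the 30 (Stxbp3, Chgb and Scg2, at -108, -72 and -68), beside 2.03% of 27025 mouse genes. TGACGTAA was in 1, Chga at -44, beside 0.581%. As this form was picked from Chga itself, that comparison cannot show whether it is more frequent among members. The window of Scg3, the other granin that fell, held neither, and Stxbp3, which holds the full CRE, did not pass. RefSeq starts are not those of the deposited annotation for these genes: the deposited start lies 364 bases upstream for Chgb, 64 upstream for Scg2 and 28 downstream for Chga, and 31 downstream for Unc13b, given next. CACGTG, the E-box letters read by the CLOCK:BMAL1 dimer, was in 4 of 30 (Stxbp2, Rab27a, Unc13b and Cadps2), beside 8.09% of genes. The Rab27a match is in the window of a RefSeq start 19338 bases downstream of the deposited start. The Rab27a window at the deposited start held none. Of the 4 genes, Unc13b rose in knockout vehicle islets under TMM, and its match at -233 is shown with E-box letters in capitals (RefSeq, GRCm38.p6, within chr4:43058703-43059002, plus strand).
Unc13b E-box: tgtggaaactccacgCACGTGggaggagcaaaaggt
Stxbp2, Rab27a and Cadps2 had vehicle log2 values of 0.02, -0.12 and 0.11 and did not pass. A match is a description of the letters and not of binding.

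Within each genotype, under TMM in the fit of all libraries, most members differed between STZ and vehicle in knockout islets and few in control islets. The acinar share also differed, at 10.8% in both knockout vehicle libraries and 33.8 and 34.2% in knockout STZ 24 h. In control it was 32.7 and 32.1% in vehicle and 22.0 and 22.2% in STZ 24 h. Its part in these differences was not tested. At STZ 24 h against vehicle in knockout, 29 members fell and 1, Vamp8, rose (median log2 -1.58), beside 26.2% and 30.1% of all genes. The largest falls were Stxbp5l (log2 -2.68, SE 0.25), Sytl4 (-2.30, SE 0.19), Pclo (-2.28, SE 0.15), Chga (-2.25, SE 0.39) and Cadps (-2.25, SE 0.12). In control islets 1 member rose, Syt5 (log2 0.66, SE 0.16, adjusted p = 0.044), and 0 fell (median 0.03), beside 5.41% and 2.15% of all genes. The Syt5 call was lost without any 1 of the 4 libraries; 6 members had an unadjusted p under 0.05, and the DESeq2 Wald test called 1. A fit of only these 4 control libraries called 13 members, 7 higher and 6 lower. Relative to the endocrine genes, 20 members were higher and 0 lower in knockout, beside 84.9% and 0.465% of all genes, and 0 passed in control, beside 4.42% higher and 2.24% lower. Of those in control, 6 had an unadjusted p under 0.05, and no other tool was run on that scale.

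At STZ 4 wk against vehicle, which also differ in time, 22 members fell and 2, Stx3 and Vamp8, rose in knockout (median log2 -0.59), beside 11.7% and 24.1% of all genes; a fit of only these 4 libraries called 6. Falls were led by Stxbp5l (log2 -1.63, SE 0.24), Sytl4 (-1.23, SE 0.18), Pclo (-1.07, SE 0.15) and Cadps (-1.04, SE 0.11). In control, 4 members rose and 0 fell (median 0.10), beside 4.98% and 4.01% of all genes. The 4 were Unc13a (log2 0.92), Syt5 (0.72), Unc13b (0.47) and Syt11 (0.37), and 0 members were called without control vehicle replicate A or without replicate B. This comparison and that of knockout with control under vehicle share the control vehicle libraries, whose acinar share was 32.7 and 32.1%. Relative to the endocrine genes, 14 members were higher and 1 lower in knockout (60.9% and 0.201% of all genes), and 1 was higher and 2 were lower in control (3.33% and 8.18%).

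The difference between the genotypes in the STZ effect was tested itself. At 24 h, 28 members had a lower STZ effect in knockout than in control and 0 a higher one (median log2 -1.52), beside 16.6% and 21.1% of all genes. Of those that passed, Stxbp5l led with -3.36 (SE 0.34, adjusted p = 8.3e-05), followed by Chga at -2.55 (SE 0.54), Unc13a at -2.54 (SE 0.28), Scg2 at -2.32 (SE 0.20) and Rims2 at -2.28 (SE 0.19). At 4 wk, 19 were lower and 1, Vamp8, was higher (median -0.70), beside 7.35% and 18.7% of all genes. Unc13a led there with -1.83 (SE 0.28, adjusted p = 0.0014), and Vamp8 was at 0.91 (SE 0.19, adjusted p = 0.0083). Both interactions use the vehicle libraries, in which the members had a median log2 difference of 0.17. The 16 endocrine genes moved with them, with interaction medians of -2.17 at 24 h (15 lower) and -1.18 at 4 wk (13 lower). Set against those genes, a scale added for the interactions after the data were seen, 19 members had a higher STZ effect in knockout and 1 a lower one at 24 h, beside 78.0% and 0.350% of all genes (medians 0.64 for members and 2.13 for all genes). At 4 wk 14 were higher and 1 was lower, beside 58.6% and 0.299% (medians 0.48 and 1.18). The lower ones were Stxbp5l at 24 h (-1.22, SE 0.42, adjusted p = 0.024) and Unc13a at 4 wk (-0.65, SE 0.21, adjusted p = 0.024). Vamp8 was higher at both times (2.69 and 2.09), and Snap25 at 24 h was at 0.18 and did not pass.

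Of 70 further genes of the exocytosis pathway, chosen by role and not among the members, 66 passed the filter. At STZ 24 h 30 fell and 9 rose in knockout, beside 19.4% and 23.7% of all genes. The median of the 66 was -0.47, against -1.30 for the members. The 4 of smallest adjusted p all fell: Rab37 (log2 -1.83, SE 0.09), Erc2 (-1.72, SE 0.15), Syt2 (-2.11, SE 0.18) and Syt9 (-1.47, SE 0.15), the last a fast calcium sensor of beta-cell granules. At 4 wk 13 fell and 7 rose, beside 7.89% and 19.9% of all genes. The 4 of smallest p were Sytl2 (2.59), Rab37 (-0.94), Ppfia4 (1.39) and Syt12 (2.52). In vehicle islets 3 fell, Rab26 (-1.68), Rab27b (-1.04) and Syt15 (-1.03), and 1 rose, Rab3gap2 (0.52), beside 7.68% and 1.96% of all genes. Rab26 and Rab27b are also known from acinar enzyme granules. The acinar share was lower in these knockout libraries, and its part in these values was not tested. Relative to the endocrine genes, 46 of the 66 were higher and 1 lower at STZ 24 h, 29 and 1 at STZ 4 wk, and 0 and 12 in vehicle islets, beside 82.8% of all genes higher at STZ 24 h, 54.5% higher at STZ 4 wk and 21.0% lower in vehicle islets.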

How the data were processed

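The authors deposited estimated counts per gene and per transcript, which are whole numbers made from StringTie coverage, per the file headers and values, with no depth scaling, and 1 transcript file per library from StringTie 1.3.6 on mm10 with a strand option and fixed transcripts, per the file headers. These files give TPM and FPKM per transcript and coverage (mean depth per base) per exon as signal, deposited by the authors; TPM was summed per gene here. The sources used here name no aligner. Per the labels, libraries were stranded mRNA sequenced as paired reads of 100 bases.

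Counts of 24421 genes, 4797 of them 0 in every library, entered edgeR 4.0.16 under R 4.3.3: filterByExpr (minimum count 10, 17411 genes kept), TMM (factors 0.825 to 1.21), 1 robust quasi-likelihood fit of 6 group means (6 residual degrees of freedom), two-sided F tests and Benjamini-Hochberg adjustment over all genes, threshold 0.05. CPM and fold changes come from this fit, and each SE is the absolute fold change (log2) divided by the square root of F. The second scaling replaced library size by the geometric mean of 16 endocrine genes; for the interactions it was added after seeing the data. Alternatives were DESeq2 1.42.0 size factors and Wald test, total counts, no filter, each reference subset, the replicate letter as a block, only the groups compared, and each library left out. The fit was tested on simulated data. A and B were not copies (chi-square over degrees of freedom at least 24.6). No same-strand exon overlap with another gene exceeded 4.33% of a member's exons. All 39 members could be named, and of the other pathway genes the 4 of smallest adjusted p. Members, lists and tests were chosen with earlier results of these data known. Promoter windows are RefSeq's; Python 3.11.15 was used.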

Additional observations from a re-analysis of the deposited data

Results flagged for a closer look

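For 48 results the effect of STZ differed between knockout and control islets by the test of that difference itself (interaction in the edgeR fit, adjusted p under 0.05). Each value is the log2 STZ effect in knockout minus that in control, under TMM. The 16 endocrine genes had medians of -2.17 at 24 h and -1.18 at 4 wk on this measure, and most of the negative values turn positive when set against them.

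At 24 h the values were -1.97 for Snap25, -0.85 for Stx3 and -1.55 for Vamp2 among the SNAREs, and -3.36 for the tomosyn gene Stxbp5l. Synaptotagmins and Doc2b were at -1.95 (Syt4), -2.13 (Syt5), -1.16 (Syt11), -1.80 (Syt13) and -0.69 (Doc2b), and the complexin Cplx2 at -1.89. Rab genes were at -2.09 (Rab3a), -1.51 (Rab3b), -1.5 (Rab3c), -0.73 (Rab3d) and -1.36 (Rab27a). Effectors and scaffolds were at -2.15 (Sytl4), -1.62 (Rph3al), -2.28 (Rims2), -2.03 (Pclo) and -0.77 (Rapgef4). Priming factors were at -2.54 (Unc13a), -1.13 (Unc13b), -2.01 (Cadps) and -0.80 (Cadps2). Granins were at -2.55 (Chga), -1.74 (Chgb), -2.32 (Scg2) and -1.72 (Scg3). Of these calls, those of Doc2b, Cadps2 and Rab3d were each lost in 6 of 8 fits that left out 1 library, and that of Stx3 in 7 (adjusted p up to 0.127); leaving out control vehicle A lost all 4.

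At 4 wk the value was 0.91 for Vamp8, the 1 positive difference, and -0.63 for Vamp2 and -1.08 for Stxbp5l. Synaptotagmins and Doc2b were at -1.36 (Syt4), -1.32 (Syt5), -1.0 (Syt11), -0.95 (Syt13) and -0.77 (Doc2b), Cplx2 at -0.72 and Rab3a at -1.20. Effectors and scaffolds were at -1.21 (Sytl4), -0.98 (Rims2), -0.69 (Pclo) and -0.66 (Rapgef4). Priming factors were at -1.83 (Unc13a), -1.29 (Unc13b) and -1.12 (Cadps), and granins at -0.70 (Chgb), -1.0 (Scg2) and -0.96 (Scg3). The calls of Pclo, Rab3a, Scg3, Stxbp5l and Doc2b were each lost in 5 of 8 such fits (adjusted p up to 0.136) and that of Cplx2 in 2; leaving out control vehicle A or control vehicle B lost all 6. Groups of 2 libraries are too small to look for a library far from the others.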

How the results depend on the processing

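Counts of members called at STZ 24 h, knockout against control, stayed within 27 to 35 of the reported 29 under each alternative. In vehicle islets 4 were called under TMM, 28 under total counts (where the median of all genes was 0.53), 2 in a fit of only the groups compared and 0 to 2 with single libraries left out. At STZ 4 wk 19 were called, and 1 in a fit of only the groups compared. For STZ 24 h against vehicle in control the count was 1, and it was 6 under total counts, 13 with only the groups compared and 0 with any 1 library left out. For STZ 4 wk against vehicle in control it was 4, and 18 under total counts, 7 by the DESeq2 Wald test, 1 with only the groups compared and 0 to 2 with single libraries left out; in knockout it was 24, and 6 with only the groups compared. Total counts reversed the vehicle difference of Rab3d (0.40), Pclo (0.45), Rab27a (0.41) and Stxbp5 (0.50) and the 24 h interaction of Stxbp3 (-0.74); under that scaling the median of all genes moves. On the endocrine scale, the factor genes alone gave 11 calls in vehicle, 17 at STZ 4 wk, 3 for STZ 24 h and 11 for STZ 4 wk against vehicle in control. The secretory genes alone gave 0, 6, 0 and 1, and 5 for STZ 4 wk against vehicle in knockout. Leaving out libraries gave 1 in vehicle, 0 for STZ 4 wk against vehicle in control and 8 to 11 in knockout. The cause of these moves was not tested. The interactions set against the endocrine genes, an alternative chosen after seeing the data, kept similar counts, 20 at 24 h and 15 at 4 wk, but turned the sign of 43 values. At 24 h these became Snap25 0.18, Rapgef4 1.38, Rph3al 0.53, Rab3d 1.42, Rab3c 0.64, Rab3b 0.64, Rab3a 0.062, Syt13 0.34, Stx3 1.29, Cplx2 0.26, Cplx1 1.41, Scg3 0.42, Doc2b 1.46, Unc13b 1.01, Cadps2 1.34, Syt4 0.20, Syt5 0.015, Chgb 0.41, Pclo 0.12, Cadps 0.14, Syt11 0.99, Rab27a 0.78, Vamp3 1.90, Vamp2 0.60, Stxbp2 2.13, Stxbp5 1.96. At 4 wk they became Rapgef4 0.52, Rims2 0.20, Rab3d 0.80, Rab3b 0.83, Stx4a 1.04, Syt13 0.24, Scg2 0.18, Cplx2 0.46, Stxbp5l 0.093, Scg3 0.23, Doc2b 0.42, Chgb 0.48, Pclo 0.50, Cadps 0.069, Syt11 0.18, Vamp2 0.55, Stxbp5 1.13. Of values of single members under TMM, 3610 kept direction and side of the threshold, 169 passed newly, 190 no longer passed and 48 reversed; on the endocrine scale these were 2013, 49, 122 and 0. The letters A and B were not taken as pairs, since the deviations of same-lettered libraries correlated between genotypes at only 0.088 in vehicle and 0.037 at STZ 24 h, although at 0.405 at STZ 4 wk. The gap of A over B followed GC with the same sign in both genotypes in each condition. With the letter as a replicate block, 4, 28 and 19 members passed for knockout against control in vehicle, STZ 24 h and STZ 4 wk, and 0 for STZ 24 h against vehicle in control; with a replicate block within each condition 16, 34 and 30 passed. With 2 libraries a group, the precision is limited by their spread, and Syt7, Rims3, Stx1a and Rims1 could not be placed.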
